A study of Mus musculus with 22 samples.

Results

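The genes described here are 9 genes whose proteins are stored in the late granules of neutrophils or sit on the surface of maturing neutrophils. They are Ngp, Camp, Ltf, Lcn2, Cd177, Mmp8, Mmp9, Chil3 and Retnlg, found by their symbols among the 35255 genes of 3 deposited count tables. Each table lists all 9 except that of the tumor samples, which lists 8 and leaves out Camp. The study sequenced RNA of mice that lack VISTA, an inhibitory checkpoint protein on myeloid cells encoded by Vsir, and of wild-type mice. The question behind it, by its title, is what VISTA does in myeloid-derived suppressor cells. These are immature neutrophil-like and monocyte-like cells that restrain T cells.

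There are 22 libraries in 6 groups. MC38 tumors, grown from a mouse colon carcinoma line and sampled at day 7, gave 3 VISTA KO and 3 WT libraries. Bone marrow myeloid cells gave 4 VISTA KO and 4 WT libraries after 24 hours of hypoxia, and 4 VISTA KO and 4 WT libraries at day 4 of normoxia. All 6 groups share the strain background C57BL/6N. For the normoxia experiment the design text names GM-CSF and IL-6 as the culture cytokines, and it calls the libraries independent biological replicates. No such statement covers the hypoxia or tumor libraries, so p-values there measure the spread between libraries, which may be technical. The labels give the tumor samples as tumor tissue. Whether their RNA came from whole tumors or from a selected myeloid fraction was not tested. Sex, age and the way the knockout was made are not given in the sources used here.

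Neutrophils make their granules in order as they mature in the bone marrow. Promyelocytes make the primary granules with myeloperoxidase and elastase, myelocytes and metamyelocytes make the secondary granules with lactoferrin and cathelicidin, and band cells make the gelatinase granules. C/EBPε, the product of Cebpe, is needed for the secondary granule proteins. Transcripts of these proteins mark the late immature stages and decline in the mature blood neutrophil.

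Ngp (ENSMUSG00000032484), Camp (ENSMUSG00000038357) and Ltf (ENSMUSG00000032496) lie on one stretch of chromosome 9 (GRCm38). Ngp is at 110419747 to 110423012 on the plus strand, Camp at 109847379 to 109849617 on the minus strand, and Ltf at 111019271 to 111042767 on the plus strand. The starts of Camp and Ngp are 570.13 kb apart, and those of Ngp and Ltf 599.524 kb. The stretches just upstream of 5 members are printed because these members were called higher in KO in both cultures and because the bases shown lie outside any annotated exon of the gene. They come from RefSeq promoter windows of GRCm38.p6, which run from 250 bases before to 50 bases after a start, and each reads 5′ to 3′ on the strand of its gene. Capitals mark a match to the C/EBP motif TTGCNNAA or its reverse complement TTNNGCAA. The positions are chr9:110419558-110419746 (plus strand) for Ngp, chr9:109849618-109849706 (minus strand) for Camp, chr9:111019042-111019270 (plus strand) for Ltf, chr7:24760312-24760561 (minus strand) for Cd177 and chr16:48872358-48872607 (plus strand) for Retnlg.
Ngp: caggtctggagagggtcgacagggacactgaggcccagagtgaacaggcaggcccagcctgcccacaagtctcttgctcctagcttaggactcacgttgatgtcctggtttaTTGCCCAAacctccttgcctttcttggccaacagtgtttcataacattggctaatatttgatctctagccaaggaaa
Camp: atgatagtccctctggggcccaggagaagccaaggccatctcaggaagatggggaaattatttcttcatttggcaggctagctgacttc
Ltf: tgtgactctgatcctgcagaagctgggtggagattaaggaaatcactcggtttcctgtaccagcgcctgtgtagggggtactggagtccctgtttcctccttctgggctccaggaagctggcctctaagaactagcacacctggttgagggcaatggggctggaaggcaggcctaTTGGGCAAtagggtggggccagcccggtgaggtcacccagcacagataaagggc
Cd177: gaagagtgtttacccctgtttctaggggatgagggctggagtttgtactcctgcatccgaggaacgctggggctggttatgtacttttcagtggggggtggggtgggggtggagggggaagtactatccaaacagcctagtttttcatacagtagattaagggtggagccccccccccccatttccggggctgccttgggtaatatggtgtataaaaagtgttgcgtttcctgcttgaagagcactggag
Retnlg: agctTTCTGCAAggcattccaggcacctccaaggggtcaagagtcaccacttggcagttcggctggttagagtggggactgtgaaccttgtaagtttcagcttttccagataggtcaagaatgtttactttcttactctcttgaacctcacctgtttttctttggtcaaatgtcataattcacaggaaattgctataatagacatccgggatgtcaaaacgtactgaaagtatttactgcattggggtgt
The match begins 138 bases before the RefSeq start in Ngp, 75 bases before it in Ltf and 246 bases before it in Retnlg. Windows were at hand for 8 of the 9 members. The C/EBP letters were found in 5 of these 8 windows (Ngp, Ltf, Lcn2, Mmp8 and Retnlg), and in 10.8% of all 32817 windows. The STAT letters TTCNNNGAA, which read the same on both strands, were in 1 of the 8 (Chil3) and in 8.29% of all windows. The ETS letters GAGGAAG or CTTCCTC were in 2 of the 8 (Lcn2 and Mmp8) and in 13.6% of all windows. Such a match is a description of the letters and not a measured binding site. All 3 patterns were searched on both strands.

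The other members lie elsewhere. Lcn2 (ENSMUSG00000026822) is on chromosome 2 at 32384633 to 32388252 and Mmp9 (ENSMUSG00000017737) on chromosome 2 at 164940780 to 164955850. Cd177 (ENSMUSG00000052212) is on chromosome 7 at 24743983 to 24760311, Mmp8 (ENSMUSG00000005800) on chromosome 9 at 7558456 to 7568485, Chil3 (ENSMUSG00000040809) on chromosome 3 at 106147554 to 106167564 and Retnlg (ENSMUSG00000022651) on chromosome 16 at 48872621 to 48874496. Exons of the 9 genes overlap exons of other genes by 0 bases. Chil3 has the close paralog Chil4, so reads common to both may have been lost or split.

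Library totals were 19119985 to 23089943 counts in the tumor KO group and 27452024 to 31716200 in the tumor WT group, 30839108 to 31385825 in hypoxia and 23409142 to 23722932 in normoxia. Vsir was lower in KO in each experiment, with a log2 fold change of -1.95 in tumor, -1.89 in hypoxia and -2.01 in normoxia. In the culture tables the WT columns are named as such, and the remaining columns, marked by a code alone, were read as KO. In normoxia, KO replicate 4 stood apart on the first principal component (53.1% of the variance), at -50.2 against -24.0 to -6.99 for the other KO libraries. Results were therefore also computed without each library in turn.

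Levels are given in CPM, which are counts scaled to a library of common size, with scaling done within each experiment. Levels per kb of exon, which allow genes to be compared, placed Ngp first in all 4 culture groups. Ngp reached 23249.7 ± 2762 CPM per kb in hypoxia KO, 9887 ± 1305 in hypoxia WT, 14148 ± 1670.5 in normoxia KO and 9913 ± 1493 in normoxia WT (SD, n = 4 each). Chil3, Lcn2 and Ltf followed it in each of these groups. At the low end stood Mmp9 in hypoxia, with 89.7 ± 19.6 CPM per kb in KO and 47.4 ± 1.51 in WT. The tumor order was different, with Chil3 (346 ± 73.3 CPM per kb in KO and 340.1 ± 42.0 in WT), Cd177 (39.8 ± 5.65 and 30.2 ± 1.36) and Mmp8 (17.3 ± 1.98 and 17.9 ± 0.601) on top (SD, n = 3 each). Ngp was at 0.0366 ± 0.0357 CPM per kb in tumor KO and at 0 in tumor WT.

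**Figure D1:**
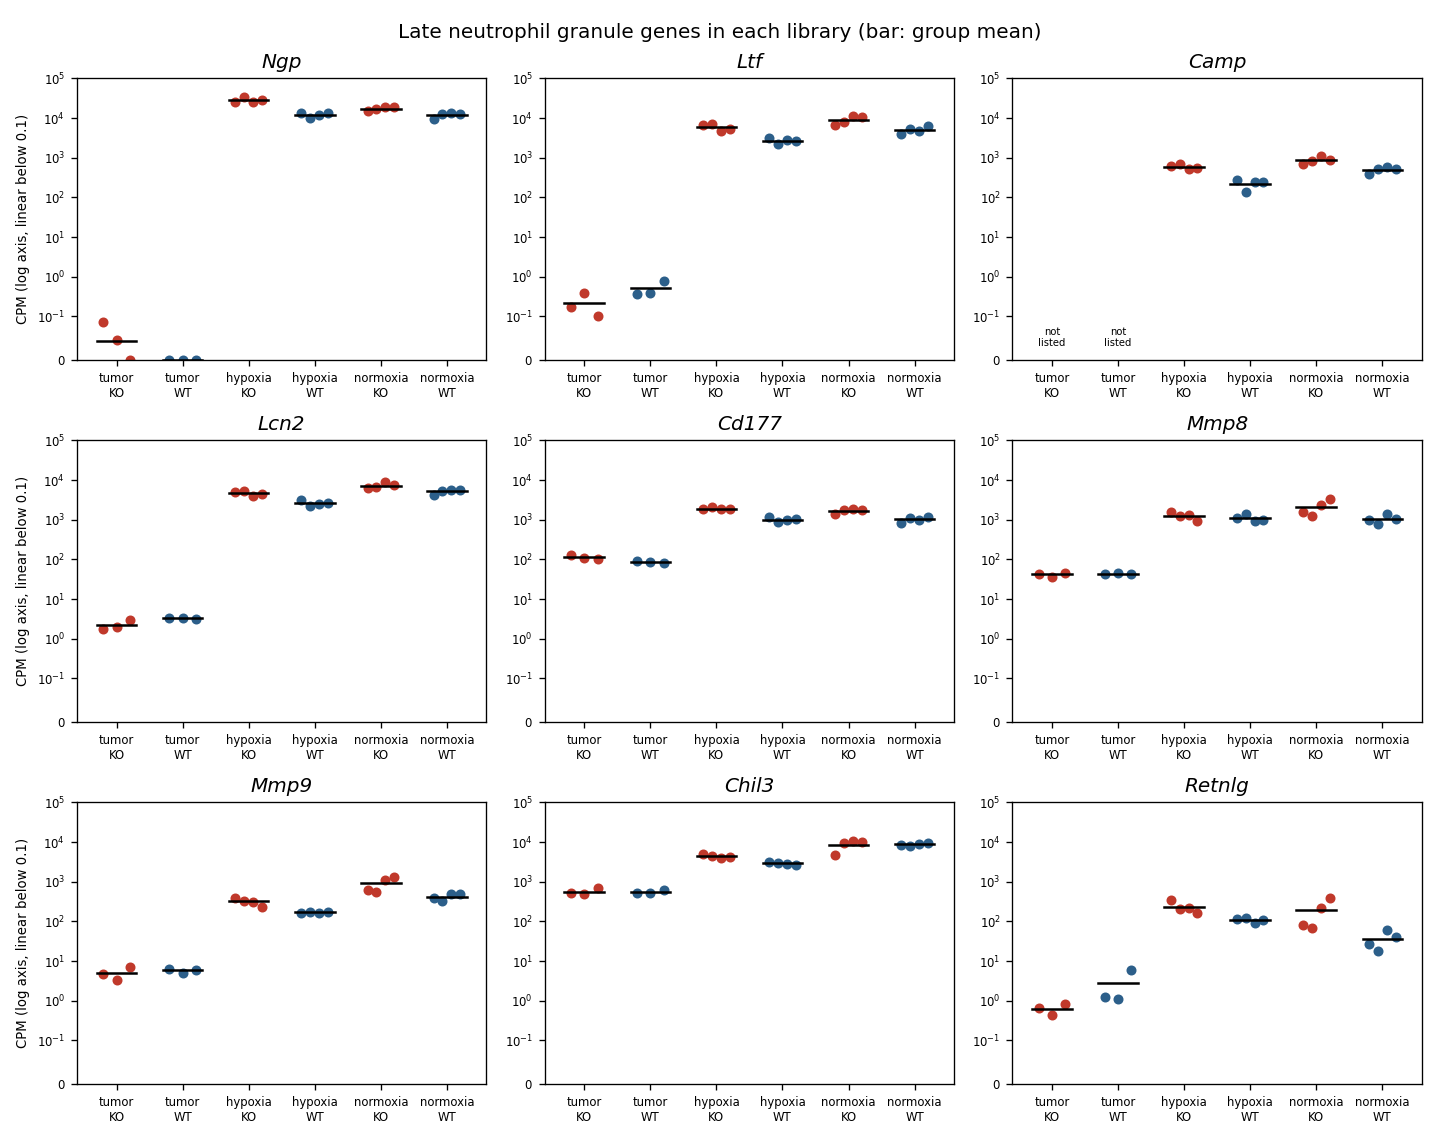
Level of each of the 9 genes in every library, in CPM on a log axis that reaches 0, with 1 panel per gene and the groups from left to right as tumor KO, tumor WT, hypoxia KO, hypoxia WT, normoxia KO and normoxia WT. Points are libraries and lines are group means, and the axis is linear below 0.1 CPM. Ngp lies at 25827 CPM or above in hypoxia KO and at 13389.8 CPM or below in hypoxia WT.

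Across the culture groups, the highest mean was in hypoxia KO for Ngp, Cd177 and Retnlg and in normoxia KO for Ltf, Camp, Lcn2, Mmp8 and Mmp9. Chil3 had its highest mean in normoxia WT, where its libraries overlapped those of normoxia KO. Ltf, Camp, Lcn2, Mmp9 and Chil3 had their lowest culture mean in hypoxia WT, and Retnlg and Mmp8 had theirs in normoxia WT. Many neighbours in these orders overlapped in their libraries. The highest group was free of overlap with the next for Ngp, Lcn2 and Mmp9, while it overlapped the next for Ltf, Camp, Mmp8 and Chil3 and, between hypoxia KO and normoxia KO, for Cd177 and Retnlg. Hypoxia WT and normoxia WT overlapped for Ngp (12082 ± 1595 and 12113 ± 1824 CPM), Cd177 (1005 ± 139 and 1024 ± 146 CPM) and Mmp8. Hypoxia KO also overlapped normoxia WT for Ltf, Camp, Lcn2 and Mmp9, hypoxia WT for Mmp8, and normoxia KO for Chil3, and normoxia KO overlapped hypoxia WT for Retnlg. The lowest culture group did not overlap the next for Ltf, Camp, Lcn2, Mmp9, Chil3 and Retnlg. The experiments were scaled separately here, so these orders describe levels, and the fit that scales the cultures together follows further on.

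The share of all counts that the 9 genes took was 4.72 ± 0.453% in hypoxia KO (4.29% to 5.36%) and 2.32 ± 0.240% in hypoxia WT (2.01% to 2.56%; SD, n = 4 each). In normoxia it was 4.64 ± 0.704% in KO (3.70% to 5.29%) and 3.51 ± 0.324% in WT (3.04% to 3.78%). The KO and WT libraries did not overlap in hypoxia, while the lowest normoxia KO library lay below the highest normoxia WT library. Tumor libraries gave 0.0730 ± 0.0127% in KO and 0.0696 ± 0.00752% in WT (n = 3 each). Most of these tumor counts were Chil3, with 11692 of 15873 in tumor KO replicate 1 and 15647 of 19909 in tumor WT replicate 1. Which cells made Chil3 was not tested. Ngp alone made up 59.3 ± 3.23% of the sum in hypoxia KO and 52.7 ± 2.42% in hypoxia WT, and 36.4 ± 2.80% in normoxia KO and 35.4 ± 2.24% in normoxia WT. In bulk RNA, fewer cells of a type and less RNA per cell cannot be told apart. The share of counts from the mitochondrial genome was 4.34 ± 0.596% in hypoxia KO and 4.38 ± 0.391% in hypoxia WT, and 5.09 ± 0.502% in normoxia KO and 4.22 ± 0.485% in normoxia WT. In tumor that share was far lower, at 0.180 ± 0.0138% in KO and 0.135 ± 0.0425% in WT (SD, n = 3 each). The part of the mitochondrial share in the normoxia difference, or in the gap between tumor and culture, was not tested.

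**Figure D2:**
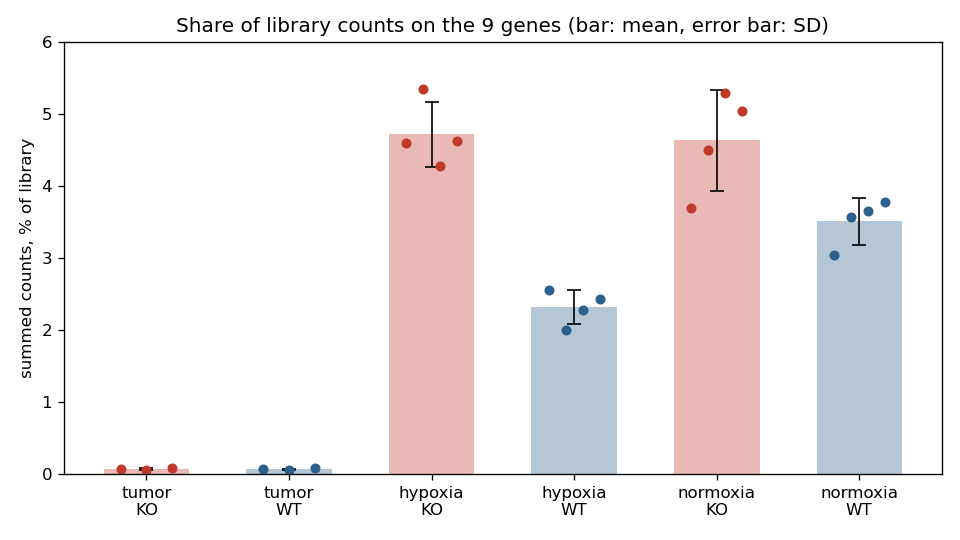
Percent of each library's counts on the 9 genes, with 1 point per library, bars for the group mean and error bars for the SD. The 4 hypoxia KO libraries lie between 4.29% and 5.36%, above the 4 hypoxia WT libraries at 2.01% to 2.56%, and all tumor libraries lie at 0.0872% or below.

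In hypoxia most of the 9 late granule genes were higher in KO. They were chosen with earlier results of these data known, so their counts are a description, and no set test was run. The edgeR quasi-likelihood test called 8 of the 9 higher and 0 lower, with a median log2 fold change of 0.92, beside a median of -0.01 over all 15018 genes tested. Of all tested genes 34.9% were called in either direction and 17.4% were called higher. Every KO library lay above every WT library for 8 members, while 16.9% of all tested genes had this order and 32.6% had no overlap in either order. Mmp8 was the exception on both counts.

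Among the antibacterial proteins, Ngp, a cathelin-related protein of the secondary granule, was at 25827, 33099.6, 26074 and 28643.5 CPM in hypoxia KO, against 13389.8, 9945, 11785 and 13207 CPM in hypoxia WT. The lowest KO library was well above the highest WT library. Its log2 fold change was 1.23 ± 0.11 (SE, edgeR adjusted p = 1.72e-05). Camp, the precursor of the cathelicidin peptide CRAMP, had 602.5, 701, 513 and 561 CPM in hypoxia KO, against 268, 134, 248 and 238 CPM in hypoxia WT. The groups were again apart, and WT replicate 2 was the lowest for both genes. The log2 fold change of Camp was 1.42 ± 0.19, the largest of the 9 members here (edgeR adjusted p = 0.000502).

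The iron-related members moved the same way. Ltf, lactoferrin, which binds free iron, was at 6873, 7166, 4817 and 5424 CPM in hypoxia KO, against 3120.2, 2171, 2770.4 and 2698 CPM in hypoxia WT. Lcn2, a lipocalin that captures bacterial siderophores, was at 4994, 5218, 4018 and 4541 CPM in hypoxia KO, against 3081, 2279, 2474 and 2596 CPM in hypoxia WT. KO replicates 1 and 2 were the highest for both, and no KO library reached down to a WT library. The log2 fold changes were 1.17 ± 0.14 for Ltf (edgeR adjusted p = 0.000116) and 0.85 ± 0.10 for Lcn2 (0.000149).

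Cd177, a lipid-anchored glycoprotein of the neutrophil surface, had 1863, 2039, 1904 and 1822 CPM in hypoxia KO, against 1189, 857, 962 and 1013 CPM in hypoxia WT. The KO libraries were close together and all above WT, with a log2 fold change of 0.92 ± 0.09 (edgeR adjusted p = 3.37e-05). The proteases divided. Mmp9, the gelatinase, was at 399, 329, 313 and 229.7 CPM in hypoxia KO, against 164, 175, 163 and 169 CPM in hypoxia WT, with a log2 fold change of 0.92 ± 0.13 (edgeR adjusted p = 0.000357). Mmp8, the neutrophil collagenase, was at 1540.1, 1237, 1335.5 and 907 CPM in hypoxia KO, against 1111, 1363, 933 and 985.5 CPM in hypoxia WT. These ranges overlapped, KO replicate 4 being the lowest of all 8 libraries. The log2 fold change of 0.19 ± 0.16 did not pass the test (edgeR adjusted p = 0.367).

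The secreted lectin and the resistin-like hormone were higher too. Chil3, a chitinase-like lectin without enzyme activity that is also called Ym1, was at 4924, 4502, 3998 and 4213 CPM in hypoxia KO, against 3217, 2914, 2842 and 2691 CPM in hypoxia WT. Its log2 fold change of 0.60 ± 0.08 was the smallest of the 8 called (edgeR adjusted p = 0.000294). Retnlg, resistin-like gamma, was at 349.8, 209, 213 and 158 CPM in hypoxia KO, against 115, 119, 91.9 and 106 CPM in hypoxia WT. KO replicate 1 was far above the other KO libraries, and all 4 were above WT, with a log2 fold change of 1.11 ± 0.21 (edgeR adjusted p = 0.00362). All 72 fits of a member without 1 library kept the call and the direction of the full hypoxia data.

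**Figure D3:**
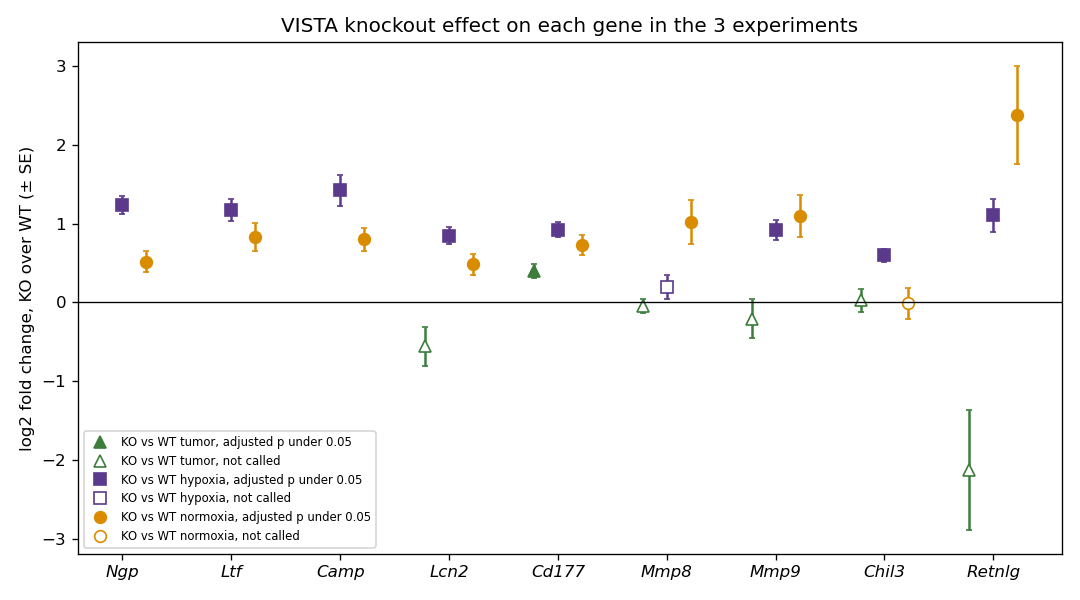
Log2 fold change of KO against WT for each gene in tumor, hypoxia and normoxia, with bars of 1 standard error and filled points where the edgeR adjusted p is under 0.05. In hypoxia 8 genes lie from 0.60 to 1.42 and are called, and Mmp8 at 0.19 is not. Ngp, Ltf and Camp have no tumor point.

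In normoxia 8 of the 9 members were again called higher in KO and 0 lower, with a median log2 fold change of 0.80 beside -0.02 over all 13950 genes tested. Of all tested genes 11.3% were called in either direction, 7.13% higher and 4.17% lower. Here the exception was Chil3, and Mmp8 was among the called. Every KO library lay above every WT library for 7 members, Mmp8 and Chil3 overlapping, while 10.7% of all tested genes had this order and 9.33% the opposite one. Calls over all genes leaned upwards, with 995 higher and 582 lower, but scaling by library size alone gave 726 higher and 951 lower. The count of members was 8 under either scaling.

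Ngp was at 14760.0, 16505, 19002 and 18888 CPM in normoxia KO, against 9456, 12856, 13589 and 12552 CPM in normoxia WT. Camp was at 676, 850.2, 1076 and 882 CPM in normoxia KO, against 397, 508, 569 and 524 CPM in normoxia WT. The groups were apart for both, and in each case replicate 1 was the lowest of its own group. The log2 fold changes were 0.51 ± 0.13 for Ngp (edgeR adjusted p = 0.0323) and 0.80 ± 0.14 for Camp (0.00793). Ltf was at 6676, 8042, 11252 and 10414 CPM in normoxia KO, against 4062, 5330.4, 4791 and 6320.3 CPM in normoxia WT. Lcn2 was at 6206, 6608, 8729 and 7523 CPM in normoxia KO, against 4168, 5426, 5513 and 5657 CPM in normoxia WT. The lowest KO library exceeded the highest WT library only narrowly for both. The log2 fold changes were 0.83 ± 0.18 for Ltf (edgeR adjusted p = 0.0151) and 0.49 ± 0.13 for Lcn2 (0.0393).

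Cd177 was at 1371, 1712, 1886 and 1786 CPM in normoxia KO, against 827, 1114, 1001 and 1152 CPM in normoxia WT. The KO libraries were all higher, with a log2 fold change of 0.72 ± 0.13 (edgeR adjusted p = 0.00714). Mmp8 was at 1522, 1262, 2304 and 3401 CPM in normoxia KO, against 959.5, 779, 1380.2 and 1067 CPM in normoxia WT. Mmp9 was at 606, 554, 1135 and 1321.5 CPM in normoxia KO, against 381, 323, 503 and 483 CPM in normoxia WT. For both proteases KO replicates 3 and 4 were far above KO replicates 1 and 2, and KO replicate 2 of Mmp8 lay below WT replicate 3. The log2 fold changes were 1.02 ± 0.28 for Mmp8 (edgeR adjusted p = 0.0375) and 1.10 ± 0.26 for Mmp9 (0.0240).

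Retnlg had the widest spread, at 81.1, 67.6, 224 and 395 CPM in normoxia KO, against 27.0, 18.4, 62.1 and 40.0 CPM in normoxia WT. KO replicates 3 and 4 again stood above KO replicates 1 and 2, and the lowest KO library was just above the highest WT library. The log2 fold change of 2.38 ± 0.63 was the largest of the members and its adjusted p was among the weakest (edgeR adjusted p = 0.0459). Chil3 was at 4849.9, 9261, 10414 and 9918 CPM in normoxia KO, against 8303, 7984.5, 9178 and 9321 CPM in normoxia WT. KO replicate 1 was the lowest of the 8 libraries and the other KO libraries reached into the WT range or above it. The log2 fold change was -0.01 ± 0.20 (edgeR adjusted p = 0.969), and 0.18 without KO replicate 1 (0.253). The paralog Chil4 was also lowest in KO replicate 1, at 3.94 CPM beside a median of 23.6 CPM over the KO libraries.

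**Figure D4:**
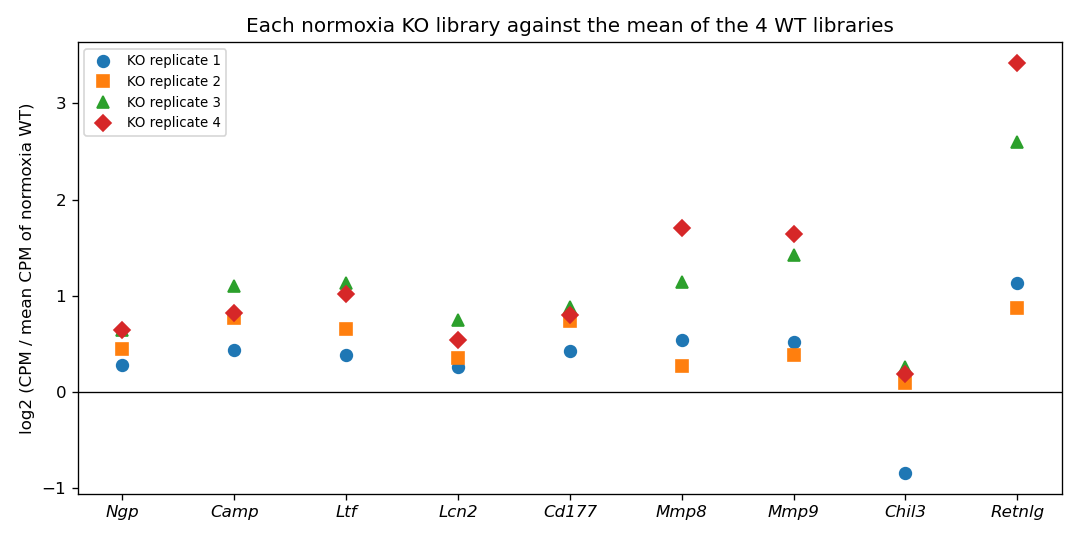
Level of each gene in the 4 normoxia KO libraries, as log2 of the ratio to the mean of the 4 normoxia WT libraries. Replicates 3 and 4 are the highest for Mmp8, Mmp9 and Retnlg, and replicate 1 is the lowest for Chil3.

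The normoxia calls depended on single libraries. Without KO replicate 3 or without WT replicate 1, 2 members kept a call, and without KO replicate 4, WT replicate 2 or WT replicate 4, 3 did. Calls over all genes moved too, from 469 (without WT replicate 1) to 2234 (without KO replicate 2) in the 8 fits, beside 1577 with all libraries. Camp and Cd177 were called in all 8 of these fits, with edgeR adjusted p of at most 0.0337 and 0.0317. All members but Chil3 stayed above 0 in each of them.

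The difference of the KO effects, hypoxia minus normoxia, was tested as an interaction in 1 fit over the 16 culture libraries. It was called for 0 of the 9 members, with a median difference of 0.35, and for 0.476% of all 15325 genes. Unadjusted p-values under 0.05 were found for 4 members, and DESeq2 called 1, Ngp. The KO effect on Ngp was 0.72 ± 0.18 larger in hypoxia on the log2 scale (edgeR unadjusted p = 0.000845, adjusted p = 0.105). Under library size scaling the edgeR adjusted p for Ngp was 0.0338, and under DESeq2 0.0132. Camp (0.62 ± 0.26) and Chil3 (0.61 ± 0.23) had larger effects in hypoxia and Mmp8 a smaller one (-0.83 ± 0.38), with edgeR adjusted p of 0.529, 0.429 and 0.591. Thus Mmp8 and Chil3, each called in 1 culture experiment and not in the other, were not shown to differ between them.

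The same fit compared hypoxia with normoxia within each genotype. Oxygen, the length of the culture and the count table a library stands in cannot be told apart in this comparison. In KO, 2 members were higher in hypoxia and 4 lower, and in WT 1 was higher and 5 lower. In either genotype 51.8% of all genes were called, 26.3% higher and 25.5% lower in KO and 26.8% higher and 24.9% lower in WT. With library size alone as the scaling, the median gene moved by -0.09 in KO and by -0.14 in WT, and the split of calls over all genes was 3357 higher and 4938 lower in KO and 3164 higher and 5510 lower in WT, beside 4030 and 3910 in KO and 4110 and 3822 in WT with TMM.

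Mmp9 and Chil3 were lower in hypoxia in both genotypes. The log2 fold change of hypoxia against normoxia was -1.40 ± 0.25 in KO and -1.22 ± 0.25 in WT for Mmp9 (edgeR adjusted p = 0.000253 and 0.000811), and -0.85 ± 0.17 in KO and -1.46 ± 0.17 in WT for Chil3 (0.000364 and 1.51e-06). Lcn2 (-0.52 ± 0.13 in KO and -0.88 ± 0.13 in WT) and Ltf (-0.47 ± 0.18 and -0.82 ± 0.18) were called lower in both genotypes as well. Camp was called lower in WT (-1.06 ± 0.19, edgeR adjusted p = 0.000213), and in KO its value was -0.44 (0.0611). Ngp went the other way in KO, with 0.83 ± 0.13 (edgeR adjusted p = 3.25e-05), while its value in WT was 0.11 (0.488), or -0.02 with library size alone. Cd177 was called higher in KO (0.29 ± 0.12, edgeR adjusted p = 0.0462), a call lost with library size alone (0.113), under the replicate block (0.0626), and without hypoxia KO replicate 1, 2 or 3, hypoxia WT replicate 3, normoxia KO replicate 1 or 2, or normoxia WT replicate 2 or 3 (0.0505 to 0.174). The Ltf call in KO was lost without hypoxia KO replicate 3 or 4 or normoxia KO replicate 3 or 4 (0.0859 to 0.118), under the replicate block (0.0643), with no low-count filter (0.105), and with both normoxia KO replicate 4 and WT replicate 3 left out (0.102). Retnlg was called higher in WT (1.67 ± 0.52, edgeR adjusted p = 0.0167, and 0.0513 without normoxia WT replicate 2), and in KO it had 0.38 (0.549). Mmp8 passed the test in neither genotype. Ngp, Ltf and Camp, all genes of secondary granule proteins, thus did not move in 1 direction.

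**Figure D5:**
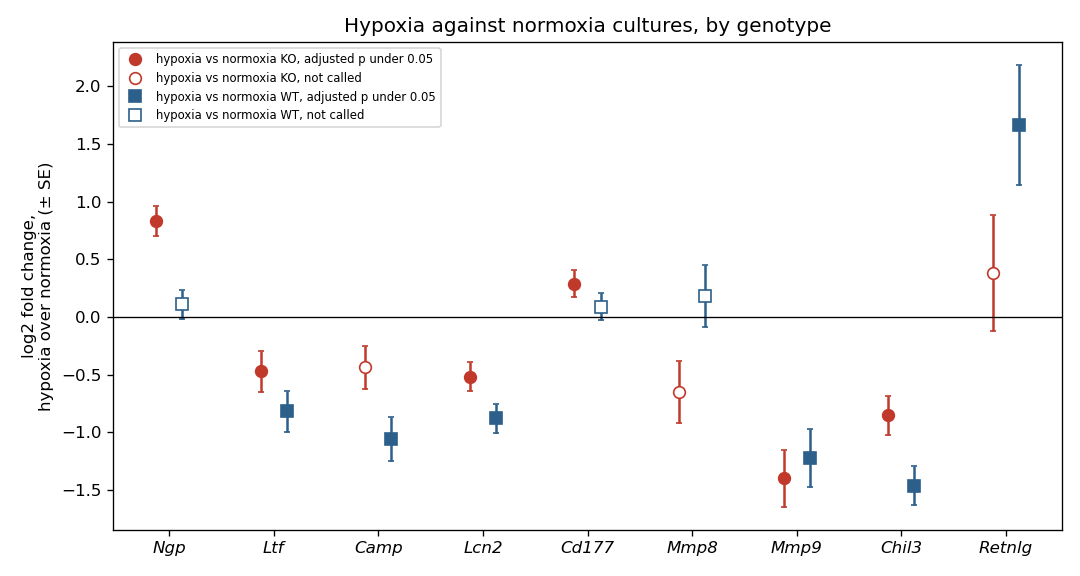
Log2 fold change of hypoxia against normoxia for each gene, in KO and in WT, with bars of 1 standard error and filled points where the edgeR adjusted p is under 0.05. Mmp9, Chil3, Lcn2 and Ltf lie below 0 and are called in both genotypes, while Ngp lies at 0.83 in KO and at 0.11 in WT.

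In the tumor libraries Ngp and Ltf were almost absent, while Mmp8, Cd177 and Chil3 were at 36.5 CPM or above in every library. Lcn2, Mmp9 and Retnlg had 9 to 192 counts a library. Ngp had 2, 1 and 0 counts in the 3 tumor KO libraries and 0 in each tumor WT library. Ltf had 4, 8 and 2 counts in tumor KO and 11, 12 and 22 counts in tumor WT. Ngp and Ltf were left out by the low-count filter and Camp is not listed, so KO was not tested against WT in tumor for these 3. Of the 5 neutrophil markers, 4 were low as well. Ly6g had 2 counts over the tumor KO libraries and 5 over the tumor WT libraries, and S100a8 (3.06 ± 0.813 CPM in tumor KO and 2.27 ± 0.660 CPM in tumor WT), S100a9 (0.968 ± 0.695 and 0.700 ± 0.549) and Cxcr2 (1.31 ± 1.02 and 0.995 ± 0.503) were far under their culture levels. The fifth, Csf3r, was at 321.8 ± 21.96 CPM in tumor KO and 237 ± 15.8 CPM in tumor WT, within the range of the culture means (SD, n = 3 each). The 23 listed of 29 other late neutrophil genes summed to 21059.7 to 25649.6 CPM in tumor KO and 15724 to 20966 CPM in tumor WT, most of it from Lyz2, a lysozyme that macrophages also make. Macrophage and monocyte markers (12 of 12 listed) summed to 15987.5 to 20396 CPM in tumor KO and 15456 to 19380 CPM in tumor WT, and 0 of 12 were called by edgeR. Dendritic cell markers summed to 9574.5 to 13656 CPM in tumor KO and 5636 to 7689.7 CPM in tumor WT, with 6 of 9 called higher. T cell markers summed to 4.70 to 9.02 CPM in tumor KO and 13.5 to 31.4 CPM in tumor WT, with 4 of 6 called lower. Over all tested tumor genes 3.28% were called higher and 3.04% lower. Epithelial markers summed to 24.8 to 57.8 CPM in tumor KO and 16.6 to 34.7 CPM in tumor WT. Stromal markers summed to 404.8 to 524.1 CPM in tumor KO and 327.3 to 395.1 CPM in tumor WT. The low levels of Ngp, Ltf and Ly6g therefore describe these libraries, and may not hold for whole MC38 tumors. The part of these other cells in the tumor values of the members was not tested.

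Of the 6 members tested in tumor, 1 was called higher in KO and 0 lower, with 6.32% of all 14370 genes called and 3.28% called higher. The call was Cd177, at 131, 107 and 101 CPM in tumor KO, against 89.7, 85.4 and 82.0 CPM in tumor WT. Every KO library was above every WT library, an order that 13% of all tested genes had, with 26.1% free of overlap in either order, and the log2 fold change was 0.40 ± 0.10 (edgeR adjusted p = 0.0269). The call was lost without KO replicate 1 (0.155), KO replicate 2, or any single WT library. Under the replicate block the log2 fold change of Cd177 was 0.39 (edgeR adjusted p = 0.000155). Chil3, at 509, 483 and 702 CPM in tumor KO, against 525, 507 and 634 CPM in tumor WT, overlapped widely (0.02 ± 0.15, edgeR adjusted p = 0.955). Mmp8 was at 43.7, 36.5 and 45.6 CPM in tumor KO, against 41.7, 44.6 and 43.7 CPM in tumor WT, with a log2 fold change of -0.05 ± 0.09. Mmp9 was at 4.61, 3.30 and 7.27 CPM in tumor KO, against 6.44, 4.998 and 6.01 CPM in tumor WT, with -0.21 ± 0.25. Both overlapped and neither passed the test (edgeR adjusted p = 0.828 and 0.705).

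Lcn2 and Retnlg lay on the other side. Lcn2 was at 1.74, 1.93 and 2.94 CPM in tumor KO, against 3.35, 3.27 and 3.08 CPM in tumor WT. Every KO library was below every WT library, yet the log2 fold change of -0.56 ± 0.24 did not pass the test (edgeR adjusted p = 0.215). Retnlg was at 0.653, 0.424 and 0.825 CPM in tumor KO, against 1.27, 1.09 and 6.04 CPM in tumor WT, from 9 to 16 counts a library in KO and 34 to 167 in WT. Its KO libraries were also all below WT, an order that 13% of all tested tumor genes had, and WT replicate 3 was far above the others. The log2 fold change was -2.13 ± 0.76 (edgeR adjusted p = 0.170) and -0.91 without WT replicate 3, while DESeq2 gave -2.14 with adjusted p = 0.00264 and the replicate block -1.86 with edgeR adjusted p = 0.00127.

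The tumor effect of the knockout was set against that of the cultures in 1 fit over all 22 libraries. The tumor and culture samples differ in tissue, in the table they stand in and in the share of mitochondrial counts given above. A shift that touches both genotypes alike cancels in this comparison. Ngp, Ltf and Camp passed the low-count filter of this fit only through their culture counts. Camp, which is not listed in tumor, was entered there as 0. Against hypoxia 2 of all 9 members were called lower, with 7.7% of all genes called, 2.93% higher and 4.77% lower. Lcn2 was 1.45 lower in its tumor effect on the log2 scale (-1.45 ± 0.24, edgeR adjusted p = 0.000408). The other was Ltf (-2.40 ± 0.66, edgeR adjusted p = 0.0268), which has at most 22 counts a tumor library. Its call was lost without tumor KO replicate 3 or tumor WT replicate 3. Ltf has too few tumor counts for such a difference, so no result is drawn from its call. Among the members tested in tumor alone, only Lcn2 was called against hypoxia. Cd177 was close to the threshold (-0.56 ± 0.18, edgeR adjusted p = 0.0501). Against normoxia 2 members were called, with 5.18% of all genes called, 1.84% higher and 3.34% lower. They were Lcn2 (-1.08 ± 0.24, edgeR adjusted p = 0.00808) and Retnlg (-4.53 ± 1.24, 0.0428). The Retnlg difference was -3.35 without tumor WT replicate 3 (edgeR adjusted p = 0.201). Its call was also lost without any single tumor KO library, normoxia KO replicate 3 or 4, normoxia WT replicate 1, 2 or 4, or hypoxia WT replicate 4, while Lcn2 kept both of its calls in every such fit. Library size alone moved the median gene of the comparison with normoxia by 0.12, and 58.0% of its calls were then higher, beside 35.5% with TMM.

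Part of the other late neutrophil genes were higher in KO in the cultures too. Of a list of 29, 18 were called higher in hypoxia KO, 0 lower and 11 not called (median log2 fold change 0.57), beside 17.4% of all genes called higher. In normoxia KO 11 were called higher, 0 lower and 18 not called (0.54), beside 7.13% of all genes called higher. Itgb2l, a neutrophil integrin beta chain, was at 336 ± 21.3 CPM in hypoxia KO and 147 ± 17.0 CPM in hypoxia WT, and at 374 ± 69.0 CPM in normoxia KO and 219.8 ± 32.2 CPM in normoxia WT (SD, n = 4 each). Pglyrp1, a secondary granule protein that binds peptidoglycan, was at 622 ± 64.6 CPM in hypoxia KO and 304 ± 25.9 CPM in hypoxia WT, and at 810.4 ± 138 CPM in normoxia KO and 459 ± 104 CPM in normoxia WT. Both were called in both cultures. Olfm4, olfactomedin of a subset of secondary granules, was called in hypoxia with a log2 fold change of 1.48, and Mmp25, a membrane-bound protease, was called in normoxia with 1.03. In tumor, 3 of the 20 tested were called higher and 2 lower. Hp, haptoglobin, rose by 0.49 and Csf3r, the G-CSF receptor, by 0.44, while Adam8 fell by 0.87 and Itgam by 0.41.

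Primary granule genes gave fewer calls than these. In hypoxia 3 of the 7 tested were called higher in KO and 0 lower, beside 17.4% of all genes called higher. The 3 were Elane, neutrophil elastase (log2 fold change 0.71), Mpo, myeloperoxidase (0.59), and Prss57 (0.87). The summed level of the list was 2601 to 3421 CPM in hypoxia KO and 1641 to 2451 CPM in hypoxia WT. In normoxia 0 of the 7 were called by edgeR, with a median of 0.10 and sums of 1744 to 2292.3 CPM in KO and 1676 to 2292.6 CPM in WT. In tumor 2 were tested and 0 called. Whether primary and late granule genes differ in their response was not tested.

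Regulators of granule genes were described from a list of 14. In hypoxia 8 were called higher in KO and 1 lower, beside 17.4% and 17.6% of all genes. In normoxia 5 of the 13 tested were called higher and 1 lower, beside 7.13% and 4.17% of all genes. Cebpe, whose product is required for secondary granules, was at 136 ± 18.5 CPM in hypoxia KO and 71.9 ± 11.1 CPM in hypoxia WT, and at 170.3 ± 12.8 CPM in normoxia KO and 112 ± 14.0 CPM in normoxia WT. It was called in both, with log2 fold changes of 0.92 and 0.61. Cebpd, a related factor, rose by 0.77 in hypoxia and 0.62 in normoxia, and Klf5 rose by 0.90 and 0.48. Csf3r, which is also among the 29 other late neutrophil genes, rose by 1.08 in normoxia. Irf8, a monocyte and dendritic cell factor, fell by 0.47 in hypoxia, and Klf4, a monocyte factor, fell by 0.43 in normoxia. In tumor the order was another, with Cebpe at 1.75 ± 0.279 CPM in KO and 3.72 ± 0.134 CPM in WT (log2 fold change -1.09) and Klf4 higher by 0.48.

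Partners and inhibitors of the granule proteins moved unevenly. Reck, a membrane-anchored inhibitor of Mmp9, rose by 0.76 in hypoxia and 0.86 in normoxia, and the inhibitor Timp2 rose by 0.68 and 0.71. Mmp14, a membrane-bound metalloprotease, was at 13.7 ± 4.13 CPM in hypoxia KO and 36.7 ± 7.98 CPM in hypoxia WT, and at 13.3 ± 2.24 CPM in normoxia KO and 34.0 ± 3.51 CPM in normoxia WT. It was called lower in both, with log2 fold changes of -1.42 and -1.35. Of this list, 5 genes were called higher and 3 lower of 13 tested in hypoxia, 2 and 1 of 11 in normoxia, and 0 and 1 of 12 in tumor. The shares over all genes were 17.4% and 17.6% in hypoxia, 7.13% and 4.17% in normoxia, and 3.28% and 3.04% in tumor. Itgb2, Itgam and Fpr2 stand both in this list and among the other late neutrophil genes.

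Relatives of Chil3, Retnlg and Ngp were called higher more often than lower in the cultures, with 6 and 1 of 10 in hypoxia and 5 and 0 of 10 in normoxia. Over all genes 17.4% were called higher and 17.6% lower in hypoxia, and 7.13% and 4.17% in normoxia. Chil1, a chitinase-like lectin, had log2 fold changes of 1.05 in hypoxia and 0.71 in normoxia, and Chil5 had 1.70 and 2.16. In tumor, Chil1 was at 2.14 ± 0.988 CPM in KO and 452 ± 57.4 CPM in WT, with a log2 fold change of -7.73, and it was the 1 call among the 4 relatives tested there. Stfa2, a stefin that is also among the 29 other late neutrophil genes, was called higher in normoxia (0.55).

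Markers of other granulocytes were higher in KO beside the late granule genes. Over all genes the share called higher was 17.4% in hypoxia and 7.13% in normoxia. The 9 eosinophil markers summed to 2227.5 to 3964 CPM in hypoxia KO and 1129.8 to 1796 CPM in hypoxia WT, and 9 of 9 were called higher. In normoxia they summed to 131 to 192 CPM in KO and 98.3 to 129 CPM in WT, with 4 of 7 called higher. The 8 mast cell and basophil markers summed to 738 to 1066 CPM in hypoxia KO and 476 to 736 CPM in hypoxia WT, with 8 of 8 called higher, and to 93.3 to 128 CPM in normoxia KO and 44.5 to 64.2 CPM in normoxia WT, with 7 of 7 called higher. Monocyte and macrophage markers summed to 2957 to 3526 CPM in hypoxia KO and 2986 to 3536 CPM in hypoxia WT, where 3 were called higher and 2 lower of 12. In normoxia they summed to 3539 to 3791 CPM in KO and 2941 to 3665 CPM in WT, with 3 of 12 called higher. Dendritic cell markers summed to 192 to 441 CPM in hypoxia KO and 385 to 584 CPM in hypoxia WT, with 1 called higher and 1 lower of 10. They summed to 121 to 278 CPM in normoxia KO and 42.4 to 89.6 CPM in normoxia WT, with 4 of 7 called higher. Erythroid markers were called lower in hypoxia KO in 4 of 5 cases, and 0 of 6 proliferation markers were called by edgeR in any of the 3 experiments. In the cultures 0 of the eosinophil, mast cell and basophil markers were at 0 in every library of a group. The part of these other cells in the member results was not tested.

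Among 7461 genes whose mean log2 CPM reached 3 in each experiment, 5 had the pattern most like that of the members. Likeness was the Pearson correlation with the mean z-score of the members within each experiment, over 8 hypoxia, 8 normoxia and 6 tumor libraries, averaged over the 3 experiments and given without a p. They were Ccndbp1 (0.937), Stk10 (0.925), Mlst8 (0.924), Stim1 (0.915) and St3gal5 (0.913). St3gal5, the synthase of the ganglioside GM3, was called higher in KO in hypoxia (log2 fold change 1.31) and in normoxia (1.21), and Mlst8, a subunit of the mTOR complexes, by 0.56 and 0.49. Ccndbp1 (0.39), Stk10 (0.40) and Stim1 (0.42) were called higher in hypoxia and not in normoxia. In tumor the mean z-score was that of the 6 members tested there. The libraries of an experiment share the genotype difference, which enters these correlations.

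Some genes next to the chromosome 9 members were called as well. Over all tested genes 34.9% were called in either direction in hypoxia, 11.3% in normoxia and 6.32% in tumor. Of the 4 tested within 100 kb of the start of Ngp, only Klhl18 was called, with log2 fold changes of 0.45 in hypoxia and 0.36 in normoxia, beside 1.23 and 0.51 for Ngp. Of the 3 tested near Camp, 0 were called by edgeR in any experiment. Near Ltf 2 were tested, and both were called in hypoxia. Ccrl2, an atypical chemoattractant receptor, was lower in KO in hypoxia (-0.35) and normoxia (-0.64) and higher in tumor (0.40). Lrrfip2 was called higher in hypoxia (0.30).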

How the data were processed

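RNA of 22 libraries was prepared with a SMART-Seq kit from total RNA, per the labels' protocols. The authors deposited raw counts per gene in 1 table an experiment. The submitters' processing notes name Subread, featureCounts and GRCm38.p6, with no tool versions. They also deposited a normalized signal per gene, made with DESeq2 per the same notes, which served for 1 alternative. Whether counting used strand is not given in the sources used here.

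From the counts, a separate model per experiment was fitted with edgeR 4.0.16 under R 4.3.3 (low counts removed by filterByExpr, TMM scaling, robust quasi-likelihood test). P-values were adjusted by Benjamini-Hochberg over all tested genes, and called means an adjusted p under 0.05. Comparisons across experiments used joint fits. The fits recovered seeded changes in simulated counts of 200 genes. Alternatives used DESeq2 1.42.0, limma 3.58.1 (pseudocount 1 on the normalized signal), other scalings, no low-count filter, a replicate block and leaving out libraries. CPM values use TMM-scaled totals within an experiment, and the depth of 19119985 to 31716200 counts limits the tumor values most. The lowest chi-square per degree of freedom between 2 libraries of a group was 3.70, so no library repeats another.

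The 9 members and the other gene lists were chosen with earlier results of these data known. Named genes are the members, Vsir, up to 4 genes of a list with the smallest p in a comparison, the 5 genes most like the members and the tested neighbours within 100 kb of Ngp, Camp and Ltf. Irf8, and Klf4 in normoxia, were named after their values were seen, as the 1 regulator called lower in each culture. Positions are those of GENCODE for GRCm38, and upstream sequences are from RefSeq.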

Additional observations from a re-analysis of the deposited data

Results flagged for a closer look

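Lcn2 in normoxia WT replicate 1 was at 4168 CPM, far from the other 3 normoxia WT libraries, which lie close together. Of 36 groups of 4 libraries tested this was the 1 that stood out, and chance flags about 1 in 20 groups.

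The KO effect on Lcn2 differed between tumor and culture. Its tumor level was low, at 40 to 57 counts a library in KO and 85 to 102 in WT. The mean CPM of Lcn2 was 2.20 in tumor KO and 3.23 in tumor WT, beside 2608 to 7267 in the culture groups. The tumor effect alone was not called (log2 fold change -0.56, edgeR adjusted p = 0.215). On the log2 scale the tumor effect minus the normoxia effect was -1.08, and the tumor effect minus the hypoxia effect was -1.45, each by a test of the difference itself in edgeR (adjusted p = 0.00808 and 0.000408). The KO effect on Retnlg differed between tumor and normoxia by -4.53 (adjusted p = 0.0428), a call that rested on few tumor counts.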

How the results depend on the processing

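The 8 hypoxia calls of members held in all 7 alternatives and all 8 fits without 1 library, where 3859 to 5703 genes were called over all. In normoxia, 8 members and 1577 genes were called. No low-count filter gave 5 members, and DESeq2 gave 2399 genes. Leaving out both KO replicate 4 and WT replicate 3 gave 2881 genes. In that fit Mmp9 and Retnlg lost their calls (edgeR adjusted p = 0.118 and 0.0976). Fits without 1 library gave 2 to 8 members and 469 (without WT replicate 1) to 2234 genes. In tumor, 1 member and 908 genes were called. DESeq2 gave 2 members, no low-count filter gave 1363 genes, and fits without 1 library gave 0 to 1 member and 443 (without KO replicate 1) to 1072 genes.

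For hypoxia minus normoxia, 0 members and 73 genes were called. DESeq2 gave 1 member and 201 genes, library size alone gave 1 member, leaving out normoxia KO replicate 4 and WT replicate 3 gave 125 genes, and fits without 1 library gave 0 to 1 member (1 without normoxia WT replicate 1) and 40 to 100 genes. For tumor minus normoxia, 2 members and 865 genes were called, 4 members and 1344 genes by DESeq2, 1 member with no low-count filter, and 1 to 4 members and 622 to 1147 genes without 1 library. For tumor minus hypoxia, 2 members and 1285 genes were called, 4 members by DESeq2, 1 member without tumor KO replicate 3 or WT replicate 3, and 4 without normoxia KO replicate 1. Member counts of these tumor differences are out of all 9, with Ngp, Ltf and Camp, which were not tested in tumor alone. Hypoxia against normoxia gave 4 to 7 members in KO and 5 to 6 in WT without 1 library. The causes were not tested.

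Signs turned for values near 0. With library size alone, hypoxia against normoxia in WT was -0.048 for Cd177 and -0.023 for Ngp. Chil3 was -0.013 for tumor minus normoxia with scaling without the members, and -0.0033 in tumor with limma. Without 1 library, Chil3 ranged from -0.21 to 0.090 for tumor minus normoxia, -0.12 to 0.18 in normoxia and -0.17 to 0.12 in tumor. Mmp8 ranged from -0.12 to 0.035 and Mmp9 from -0.56 to 0.018 in tumor, Mmp9 from -0.36 to 0.074 for hypoxia minus normoxia, and Cd177 from -0.0028 to 0.16 for hypoxia against normoxia in WT.

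Deviations of same-numbered KO and WT libraries had correlations of -0.159 to 0.372. In hypoxia no KO library correlated best with the WT library of its own number. In normoxia replicates 2 and 3 did (0.372 and 0.117), and replicates 1 and 4 did not. In tumor each KO library correlated best with the WT library of its own number (0.0797 to 0.218), a hint from the data only. A replicate block gave 3942 genes called in hypoxia, 2278 in normoxia, 2266 in tumor and 35 for hypoxia minus normoxia, and 8, 8, 2 and 0 members, the second in tumor being Retnlg. It gave 2 members each for tumor minus hypoxia and tumor minus normoxia, and 4 in KO and 6 in WT for hypoxia against normoxia.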
